A study of Mus musculus with 12 samples.

Results

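Apolipoproteins are the proteins that hold lipoprotein particles together and steer them to receptors and enzymes. The genes described here are 10 members of this system, taken by symbol from the 25284 genes of the deposited count table: the apolipoprotein genes Apoe, Apoc1, Apoa1, Apob, Clu and Apod, and the genes Lpl, Gpihbp1, Lcat and Pltp, whose products remodel lipoproteins. All 10 have a row in the table. The samples were thoracic aortas of male apoE-/- mice on a C57BL/6 background, 18 weeks old, all fed a high fat, cholesterol enriched diet and all carrying the targeted Apoetm1Unc allele. For 8 weeks osmotic minipumps delivered either the α7nAChR agonist AZ6983 (6 mice, a daily 50 µmol per kg) or its vehicle, cyclodextrin in saline (6 control mice). There was no Apoe wild-type group, so the effect of the deletion itself cannot be read from these data. Control mice are called C1 to C6 and AZ6983 mice A1 to A6. Each library is 1 mouse.

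Liver and intestine secrete the apolipoprotein B particles that carry cholesterol and triglyceride in plasma, and apolipoprotein E lets the remnants of these particles be taken up again. Without it, remnants stay in plasma and atherosclerotic plaque forms in the aorta. Peripheral tissues still take part: lipoprotein lipase, made by fat and muscle cells and held on capillary endothelium by GPIHBP1, releases fatty acids from the particles, while the phospholipid transfer protein (Pltp) and lecithin-cholesterol acyltransferase (Lcat) reshape HDL. Macrophages and fat cells make small exchangeable apolipoproteins, some of them under LXR, a nuclear receptor for oxidised sterols.

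The member that differed most between the groups was Apoc1. It encodes apolipoprotein C-I, a short protein that moves between lipoproteins and is known to inhibit lipoprotein lipase. Apoc1 lies on the minus strand of chromosome 7 (GRCm38, bases 19689481 to 19692660), 3448 bases from Apoe in the GENCODE M21 annotation. A coding sequence of this gene is printed because the gene has the main difference, and it shows how short the message is. The counts are per gene and name no transcript. The transcript Apoc1-201 has 4 exons and a coding part of 267 bases, the stop codon included, which lies within chr7:19689576-19692468 and reads 5′ to 3′:

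Apoc1 coding sequence: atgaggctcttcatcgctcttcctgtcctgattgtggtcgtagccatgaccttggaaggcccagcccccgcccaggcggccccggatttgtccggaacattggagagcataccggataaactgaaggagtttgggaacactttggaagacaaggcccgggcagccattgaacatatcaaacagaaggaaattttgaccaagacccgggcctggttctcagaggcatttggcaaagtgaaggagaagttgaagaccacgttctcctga

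Apoe, the disrupted gene, lies at bases 19696109 to 19699188 of the same strand. The 250 bases before its first RefSeq start (GRCm38.p6, chr7:19699189-19699438, minus strand) are printed because reads were still counted on this gene in every mouse:

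Apoe promoter: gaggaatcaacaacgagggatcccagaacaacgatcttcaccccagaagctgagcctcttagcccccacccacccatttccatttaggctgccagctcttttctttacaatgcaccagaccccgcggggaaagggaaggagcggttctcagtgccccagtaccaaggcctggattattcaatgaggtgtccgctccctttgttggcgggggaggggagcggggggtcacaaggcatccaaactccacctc

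RefSeq promoters of 250 bases before to 50 bases after the start were found for 6 of the 10 members (Apoe with 3 starts, Apod, Apob, Apoa1, Pltp and Lcat). None of these 8 windows held AGGTCA, the half-site of nuclear receptors, on either strand, and none held the LXR form, AGGTCA repeated after a gap of 4 bases, or TCACNCCAC, an SREBP motif. Over all 32851 promoters of this length, searched on both strands, 16.3% held AGGTCA, 0.0152% its repeat and 1.24% TCACNCCAC. TATAAA was found in Apob, Pltp and 1 of the Apoe windows, against 13.6% of all promoters. The match in Pltp lay after the start (first base at 36), those in Apob (-60) and Apoe (-96 and -100) before it. These are matches of letters only.

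The libraries had 23810036 to 35864666 counts on genes. The labelled tissue was checked with 8 smooth muscle markers, all 8 of which passed the filter on low counts, whose summed level ran from 14191 to 18929 CPM in controls and from 11142 to 18872 CPM with AZ6983 (CPM are counts scaled to library size with edgeR's TMM factors). White fat, brown fat, macrophage, endothelial and adventitial fibroblast markers were also counted in every library. Mouse A4 stood apart by T cell markers (summed level 965 CPM, against 2.79 to 38.7 CPM elsewhere). Most of these counts in A4 were on Rag1 (21669), with 4230 on Cd8a, 3970 on Themis and 76 on Ptcra. The tissue they came from was not tested. The share of reads on no gene was 8.02% to 12.7% in controls and 11.2% to 14.9% in AZ6983 mice. The column of A1 holds 3 of the 4 digits of its label, and the other 11 columns match in full.

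Lpl and Clu made up most of the signal of the 10 members. Set per kilobase of annotated exon, so that genes can be compared, Clu averaged 152 ± 32.7 (SD, n = 12) and Lpl 128 ± 35.9 CPM per kilobase, and Clu was above Lpl in 8 of 12 mice. Pltp followed at 31.2 ± 5.40, Apoc1 at 28.1 ± 16.5 and Apod at 27.3 ± 11.9 CPM per kilobase (SD, n = 12 each). The order of these 3 depended on the mice: Pltp was above Apoc1 in all 6 controls and in 3 AZ6983 mice, and Apoc1 above Apod in 2 controls and 4 AZ6983 mice. From there the order was the same in all 12 mice: Gpihbp1 (11.7 ± 2.97), Apoe (4.12 ± 0.996), Lcat (0.681 ± 0.162), Apoa1 (0.125 ± 0.127) and Apob (0.0172 ± 0.0230 CPM per kilobase). Exon length here is the union over all annotated transcripts of a gene, 10478 bases for Lpl, and a shorter length would give a higher level per kilobase.

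Of the 10 members, 8 passed edgeR's filter on low counts. In edgeR's quasi-likelihood test 0 of the 8 reached 10% FDR, against 0.0% of the 15857 genes tested. With an unadjusted p under 0.05, there was 1 of 8 (Apoc1), against 10.2% of all genes (1616 genes), and Apoc1 was also the 1 member with a log2 fold change of at least 1, against 1.69%. DESeq2, run with its defaults on every gene, called 92 genes or 0.523% of those with an adjusted p, and Apoc1 was the only member among them. On simulated counts of the 15857 genes that passed the filter, with 200 of them changed, DESeq2 made 87 false calls at 10% FDR and edgeR 18. These counts were drawn gene by gene from dispersions estimated by edgeR, without differences in tissue content between mice. They therefore do not tell whether the call of Apoc1 is false, or what share of the 92 calls on every gene is. The plot of log2 fold changes shows that 5 members had a log2 fold change above 0 and 3 below, and that only the interval of Apoc1 lay clear of 0. A whole-aorta library cannot tell fewer cells of a type from less RNA per cell, and this holds for every member below.

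**Figure D1:**
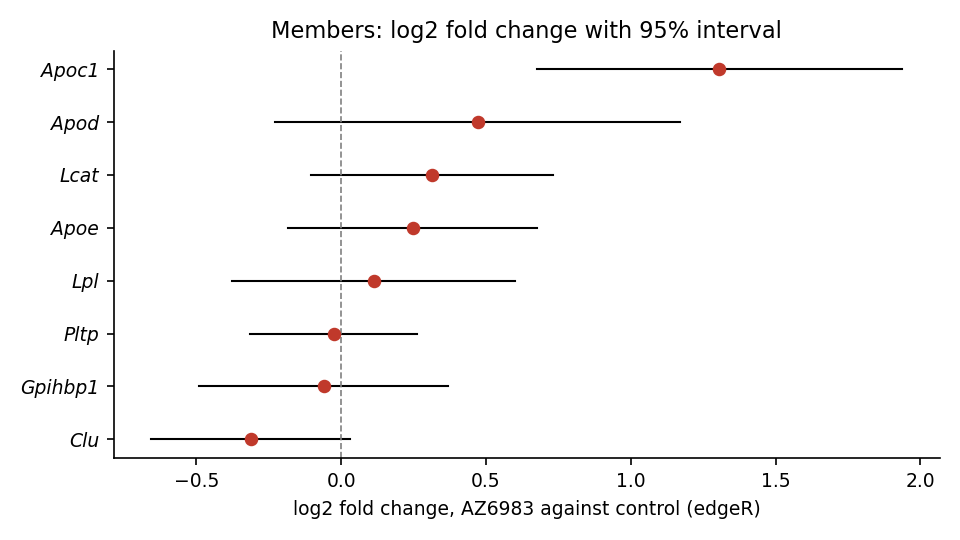
Log2 fold change of AZ6983 against control mice for the 8 members that passed the filter, from edgeR, with lines for the 95% interval of the fit. Apoc1 is at 1.31 with an interval of 0.67 to 1.94, and the intervals of the other 7 members include 0.

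Apoc1 was at 11.5, 20.3, 12.6, 13.2, 8.63 and 6.02 CPM in C1 to C6. In A1 to A6 it was at 18.7, 20.5, 22.0, 34.8, 36.3 and 46.0 CPM. Every AZ6983 mouse but A1 was above the highest control, C2 (A2 only narrowly), and A1 was above the other 5 controls. Control mice averaged 12.03 ± 4.86 CPM and AZ6983 mice 29.7 ± 10.99 CPM (SD, n = 6 each). Their ratio in the fit was 2.47 (95% interval 1.596 to 3.83), or 1.31 on the log2 scale (standard error 0.292). The adjusted p was 0.428 in edgeR's quasi-likelihood test and 0.00777 in DESeq2 on every gene. Apoc1 is among the genes the authors called higher with DESeq2 at 10% FDR. At least 5 AZ6983 mice above every control were found in 1.57% of all genes tested, and Apoc1 ranked 23 of 15857 by edgeR's p. With any 1 mouse left out, the log2 fold change was 1.14 to 1.497, and it was 1.41 without A1. With reads outside genes as a covariate it was 0.96 (standard error 0.403, unadjusted p = 0.0355, adjusted p = 0.9998 in edgeR). Every tested member had this adjusted p in that fit. The covariate itself differed between the groups, with a median of 10.1% in controls and 12.4% with AZ6983, so the 2 are partly confounded.

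**Figure D2:**
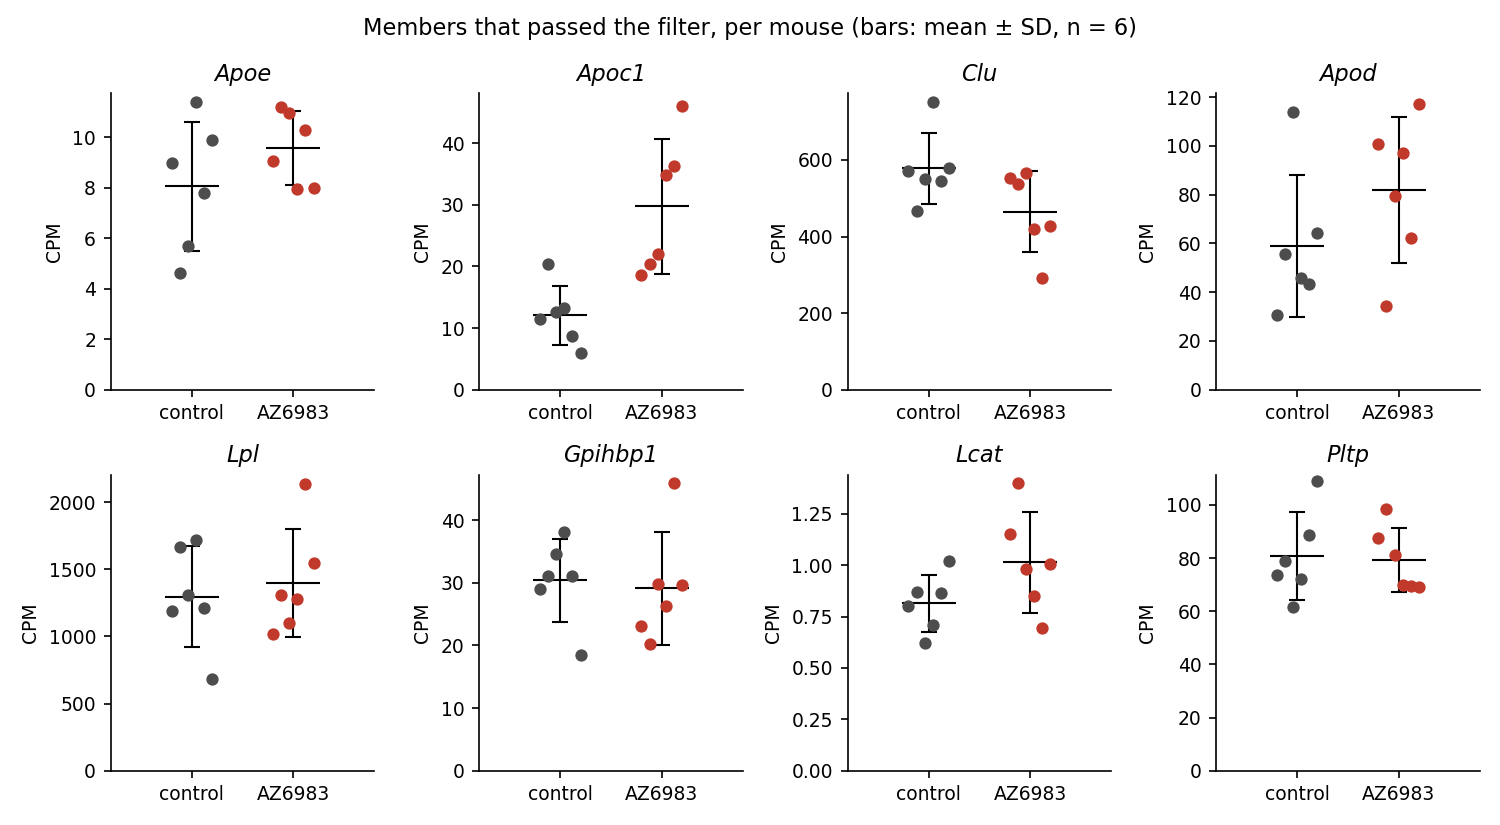
CPM per mouse of the 8 members that passed the filter, 1 panel per gene with its own axis from 0, control mice in grey and AZ6983 mice in red, bars for mean and SD (n = 6). Apoc1 runs from 6.02 to 20.3 CPM in controls and from 18.7 to 46.0 CPM in AZ6983 mice, an overlap by C2 and A1 alone. In each of the other panels the groups overlap more, least so for Clu.

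Macrophages of plaque are known to make Apoc1, so its level was set beside 14 macrophage markers, all of which were tested. Their summed level was 1106 to 2105 CPM in controls and 819 to 2181 CPM with AZ6983, and their mean log2 CPM differed by -0.38 (exact permutation test, two-sided, p = 0.156, adjusted over 11 marker lists 0.631). The 3 AZ6983 mice with the most Apoc1 (A4, A5 and A6) had the 3 lowest macrophage scores of all 12 mice. Marker by marker the log2 fold change ran from -1.19 (Spp1) and -0.75 (Gpnmb), genes of lipid-laden macrophages, to 0.0037 (C1qa), 0.085 (Csf1r) and 0.13 (Cd14), and 0 of the 14 had an unadjusted p under 0.05 in edgeR. The score thus averages markers with unlike values, and the relation to it depends on which are listed. Relative to the markers within each library, log2 Apoc1 was -2.52 ± 0.822 in controls and -0.82 ± 1.03 in AZ6983 mice (SD, n = 6 each), a difference of 1.70 with 4 AZ6983 mice above every control. The exact permutation test, two-sided, gave p = 0.0130, adjusted over 5 such relations 0.0433. Part of the 1.70 lay in the markers, which differed by -0.38. Apoc1's own difference was known before this test, so the p is no separate evidence for it. Left out 1 at a time, the mice gave a difference of 1.45 to 1.95 and an adjusted p of 0.0325 to 0.0866, and without A4 and A5 together the difference was 1.28 (adjusted p = 0.127, exact permutation test).

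Across the 12 mice the Pearson's r of Apoc1 was -0.72 with the macrophage score, 0.66 with the white adipocyte score and 0.80 with the endothelial score. Marker and member levels share the total of their library, and these r are descriptions. The part of the fat, endothelial and macrophage content in the Apoc1 difference was not tested beyond the relation to macrophage markers given here. Of 11078 genes with a mean of 5 CPM or more, the 3 whose pattern was most like Apoc1 were Acsm3, a medium-chain acyl-CoA synthetase (r = 0.93), Bcat2, a branched-chain aminotransferase (r = 0.93), and St3gal6, a sialyltransferase (r = 0.93). Within groups, with each group centred on its mean, r was 0.87, 0.90 and 0.88 in the same order, and without C6 and A6, the mice farthest from the median of Apoc1, it was 0.91, 0.86 and 0.85.

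**Figure D3:**
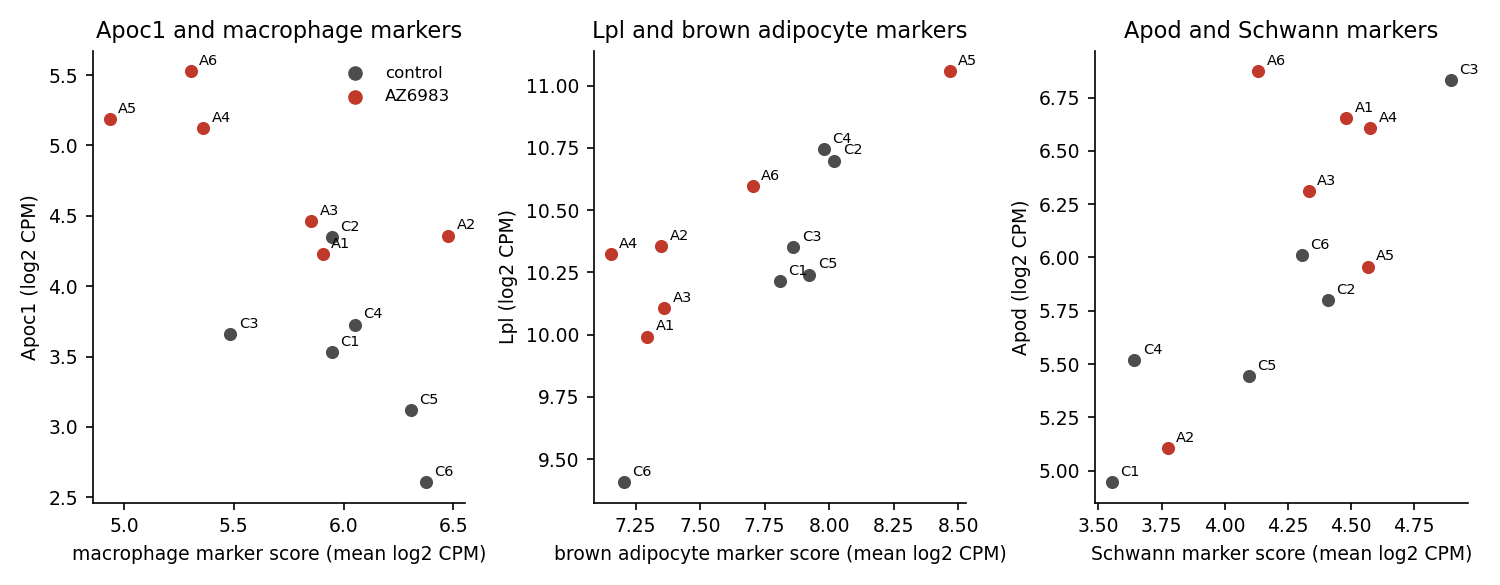
Log2 CPM of Apoc1, Lpl and Apod (vertical axes) against the mean log2 CPM of macrophage, brown adipocyte and Schwann cell markers (horizontal axes), 1 point per mouse, controls in grey and AZ6983 mice in red. In the left panel A4, A5 and A6 hold the highest Apoc1 and the lowest macrophage scores, in the middle panel A5 is highest and C6 lowest for Lpl, and in the right panel Apod follows the Schwann cell score with a Pearson's r of 0.78 over 12 mice.

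Apoe had 257, 117, 165, 306, 225 and 290 counts in C1 to C6 and 244, 311, 279, 298, 252 and 214 in A1 to A6. Reads were thus assigned to the disrupted gene in all 12 mice, and the table does not say to which exons, so these counts do not test the allele. In CPM, controls ran from 4.63 to 11.4 and AZ6983 mice from 7.93 to 11.2, and all 6 AZ6983 mice lay within the range of the controls. The log2 fold change was 0.25 (standard error 0.198, edgeR adjusted p = 0.649). It was 0.11 without C2 and 0.15 without C3, the 2 mice farthest from the median, and 0.53 with reads outside genes as a covariate.

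Apoe and Apoc1 are neighbours, and over the 12 mice their Pearson's r was -0.014, or -0.58 with each group centred on its mean. Tomm40, a mitochondrial import pore 2124 bases from Apoe, averaged 29.0 ± 1.21 CPM (SD, n = 6) in control and 30.2 ± 5.69 CPM (SD, n = 6) in agonist-treated aortas, with a log2 fold change of 0.06. Apoc2, the cofactor of lipoprotein lipase, ran from 2 to 6 counts in controls and from 5 to 13 with AZ6983, and Apoc4 from 0 to 2 and from 0 to 3. Apoc2 and Apoc4 lie 141 bases apart and overlap a further annotated gene, Gm44805, so their few counts are uncertain. Of 9 listed neighbours 6 were tested (Relb, Clptm1, Tomm40, Pvrl2, Bcam and Bcl3), 0 of them at an unadjusted p under 0.05 against 10.2% of all genes, a number too small to set the neighbours apart, with a median log2 fold change of 0.06 against 0.01 over all genes tested. The smallest unadjusted p among these neighbours belonged to Relb, an NF-kappaB subunit, with a log2 fold change of 0.18 (edgeR adjusted p = 0.501).

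Clu encodes clusterin, or apolipoprotein J, a secreted chaperone found on HDL and made by smooth muscle cells. It was at 572, 468, 551, 751, 546 and 580 CPM in C1 to C6 and at 553, 537, 565, 420, 291 and 427 CPM in A1 to A6. A4, A5 and A6 were below the lowest control, and A1 to A3 lay among the controls. At least 3 AZ6983 mice below every control were found in 12.7% of all genes tested. Its log2 fold change was -0.31 (95% interval -0.66 to 0.03, standard error 0.159, edgeR adjusted p = 0.514), and it was -0.17 without A4 and A5 and also with reads outside genes as a covariate. Over the 12 mice Clu had a Pearson's r of 0.75 with the smooth muscle score, 0.74 with the macrophage, -0.71 with the white adipocyte and -0.67 with the skeletal muscle score. Skeletal muscle markers summed to 20.3 to 1435 CPM in controls and 32.1 to 1500 CPM with AZ6983. A5, lowest in Clu, also had the lowest summed smooth muscle level (11142 CPM), and the part of cell content in the Clu values was not tested. The genes most like Clu in pattern were Tspan5 (r = 0.95), Asph (r = 0.95) and Cdh13 (r = 0.95), of which Cdh13 encodes T-cadherin, a receptor for adiponectin and LDL.

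Apod encodes apolipoprotein D, a lipocalin that carries small hydrophobic ligands and is made by fibroblasts and glia of peripheral nerve. It was at 30.8, 55.6, 114, 45.8, 43.4 and 64.4 CPM in C1 to C6 and at 101, 34.3, 79.3, 97.3, 62.1 and 117 CPM in A1 to A6. The groups overlapped over nearly their whole range, with C3 among the highest mice and A2 among the lowest. Its log2 fold change was 0.47 (standard error 0.324, edgeR adjusted p = 0.596), and it was 0.76 without C3 and 0.34 without C1. Its level followed the 8 Schwann cell markers over the 12 mice (Pearson's r = 0.78), whereas r with the 8 fibroblast markers was -0.25. The summed Schwann cell level ran from 213 to 360 CPM in controls and from 219 to 314 CPM with AZ6983. The genes most like Apod included Cadm4 (r = 0.89), an adhesion molecule of Schwann cells, and Sfrp5 (r = 0.89), a secreted Wnt inhibitor.

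Apoa1, the main protein of HDL, and Apob, the structural protein of LDL and VLDL, are products of liver and intestine, and neither passed the filter. Apoa1 had 3, 15, 5, 5, 1 and 2 counts in C1 to C6 and 2, 7, 2, 8, 1 and 1 in A1 to A6. Apob had 2, 30, 1, 2, 3 and 5 counts in controls and 3, 7, 4, 18, 3 and 3 in AZ6983 mice. C2 was highest for both. A4, the deepest library, came next in Apob, and in Apoa1 A2 was next when scaled to library size (0.252 CPM against 0.213 in A4). C2 was also the mouse with the most albumin (Alb, 69 counts, against 0 to 11 in the other 11 mice), Fga (17 against 0 to 5) and Fgb (16 against 0 to 2), which are liver genes. In A4 the counts of Alb, Fga and Fgb were 6, 3 and 1, within the range of the other mice. Among the other listed hepatocyte markers, Apoa2 was also highest in C2 (20 counts), and Ttr in C2 and C6 (5 counts in each). Ahsg and Serpina1b were highest in C1, Serpina1a in A1, and Tat and Cyp2e1 in A4. Ahsg had 117 counts in C2, against 335 in C1. Of the 10 hepatocyte markers 4 were tested, and 2 of these 4 (Cyp2e1 and Ahsg) had most of the list's counts, which ran from 42.9 to 264 CPM in controls and from 163 to 277 CPM with AZ6983 in sum. The part of liver RNA, or of RNA from another tissue, in the Apob and Apoa1 counts was not tested. Fitted without the filter, the log2 fold change of Apoa1 was -0.66 (standard error 0.646, adjusted p = 0.710) and that of Apob -0.34 (standard error 0.753, adjusted p = 0.882), both from edgeR. Without C2 these values were 0.056 and 1.16 (standard error 0.514, edgeR adjusted p = 0.439), so both directions rest on that mouse.

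**Figure D4:**
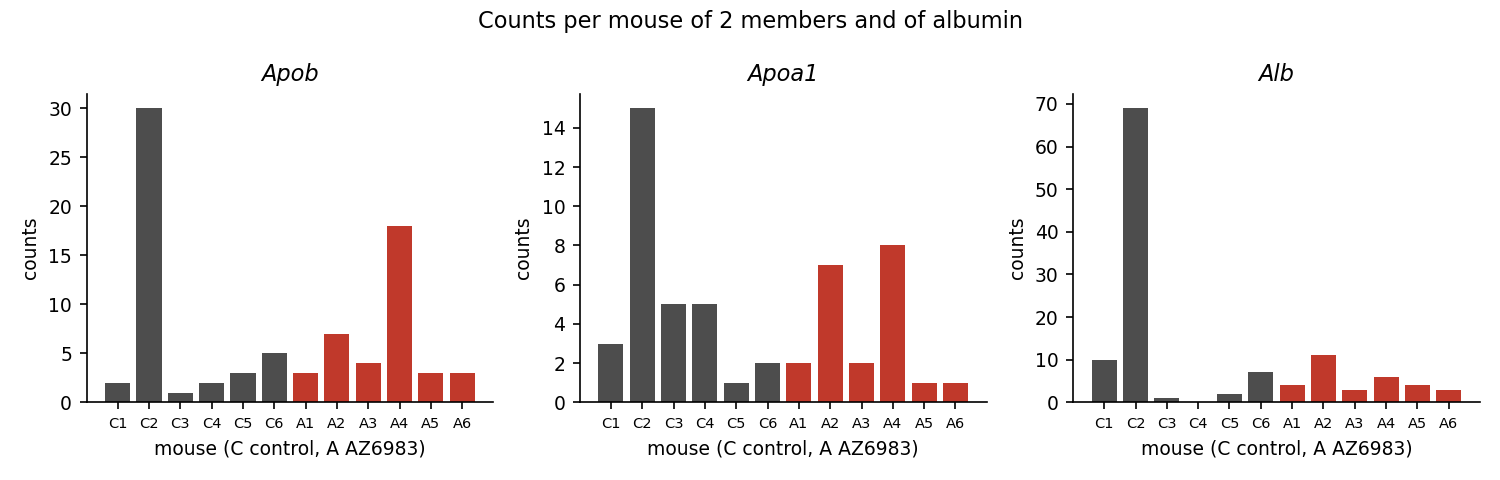
Counts per mouse of Apob and Apoa1, the 2 members under the filter, and of the liver gene Alb, as bars from 0 with controls in grey and AZ6983 mice in red. C2 is highest in all 3 panels, with 30, 15 and 69 counts.

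Lpl, lipoprotein lipase, was at 1189, 1663, 1308, 1715, 1211 and 679 CPM in C1 to C6. In A1 to A6 it was at 1018, 1310, 1101, 1281, 2132 and 1547 CPM. A5 was highest and C6 lowest, and the other 10 mice of both groups overlapped. The log2 fold change was 0.11 (95% interval -0.38 to 0.60, edgeR adjusted p = 0.878), and it was below 0 without A5 (-0.069) or without C6 (-0.020). White adipocyte markers summed to 10066 CPM in A5 and 4182 CPM in C6, also the highest and the lowest of the 12 mice. Brown adipocyte markers were highest in A5 (6115 CPM), whereas C6 (2858 CPM) was above A1 to A4 (2507 to 2787 CPM). The part of fat content in the Lpl values was not tested.

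Relative to the 10 white adipocyte markers, log2 Lpl was 2.17 ± 0.350 in controls and 2.16 ± 0.238 in AZ6983 mice (SD, n = 6 each), a difference of -0.01 (exact permutation test, two-sided, p = 0.955, adjusted over 5 relations 0.955). Relative to the 8 brown adipocyte markers it was 2.48 ± 0.214 in controls and 2.85 ± 0.214 in AZ6983 mice (SD, n = 6 each), a difference of 0.37 with 3 AZ6983 mice above every control. The markers themselves differed by -0.24 in mean log2 CPM, with a median summed level of 4423 CPM in controls and 2730 CPM with AZ6983, so most of the 0.37 lay in the markers and not in Lpl. This difference had p = 0.0173 in the exact permutation test, adjusted over 5 relations 0.0433, and an adjusted p of 0.0379 to 0.0866 with 1 mouse left out. Without A4 and A5 together it was 0.36 (adjusted p = 0.127, exact permutation test). The adjusted 0.0433 also rests on the Apoc1 relation, which is in the same family of 5 and had a smaller p. The genes most like Lpl in pattern were Sav1, a scaffold of the Hippo pathway (r = 0.97), Pde4d, a cAMP phosphodiesterase (r = 0.96), and Car13, a carbonic anhydrase (r = 0.95).

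Gpihbp1, the endothelial anchor of lipoprotein lipase, was at 28.9, 31.0, 34.6, 38.2, 31.1 and 18.5 CPM in C1 to C6 and at 23.1, 20.2, 29.8, 26.3, 45.9 and 29.6 CPM in A1 to A6. The same 2 mice as for Lpl were at the ends, A5 highest and C6 lowest. Its log2 fold change was -0.06 (95% interval -0.49 to 0.37, edgeR adjusted p = 0.929), and the summed level of 8 endothelial markers ran from 1060 to 1265 CPM in controls and from 1179 to 1390 CPM with AZ6983. Relative to those markers log2 Gpihbp1 differed by -0.19 (exact permutation test, two-sided, p = 0.266, adjusted over 5 relations 0.333). Lpl and Gpihbp1 had a Pearson's r of 0.81 over the 12 mice (Spearman's rho 0.66). Gpihbp1 had an r of 0.86 with the brown adipocyte score and 0.72 with the endothelial score. Among the genes most like it were Ndufa5, a subunit of respiratory complex I (r = 0.96), and Stard5, a sterol-binding protein (r = 0.95).

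Pltp, which moves phospholipid between lipoproteins, was at 73.5, 79.0, 61.6, 72.1, 88.9 and 109 CPM in C1 to C6 and at 87.4, 98.6, 81.1, 69.8, 69.4 and 69.1 CPM in A1 to A6. It was the member with the smallest spread, its highest mouse being 1.77 times its lowest, and the groups overlapped. The log2 fold change was -0.03 (95% interval -0.32 to 0.26, edgeR adjusted p = 0.959). Pltp followed the macrophage score (Pearson's r = 0.80) and the adventitial fibroblast score (r = 0.82), the opposite of Lpl (r = -0.57 and -0.73). The genes most like it were Cybb, the NADPH oxidase of phagocytes (r = 0.95), Metrnl, a secreted protein (r = 0.94), and Scara3 (r = 0.93).

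Lcat, which esterifies cholesterol on HDL and is made mainly by liver, ran from 18 to 30 counts in controls and from 17 to 39 with AZ6983. In CPM it was at 0.802, 0.870, 0.621, 0.707, 0.867 and 1.02 in C1 to C6 and at 1.15, 1.40, 0.980, 0.851, 0.695 and 1.01 in A1 to A6. A1 and A2 were above every control, where 28.9% of all genes had at least 2 such mice. Its log2 fold change was 0.31 (95% interval -0.10 to 0.73, edgeR adjusted p = 0.565), and it was 0.19 without A2 and 0.088 with reads outside genes as a covariate. Lcat had an r of 0.82 with the fibroblast score and 0.74 with Pltp over the 12 mice (Spearman's rho 0.71 with Pltp), and of -0.80 with Gpihbp1. Mmp2, a matrix protease (r = 0.92), Gxylt2 (r = 0.92) and Samd4 (r = 0.91) were most like it in pattern. For Apoe these were Ctdsp1 (r = 0.83), Slc10a7 (r = 0.81) and Adam15 (r = 0.80), and for Slc10a7 the r was 0.44 without C2 and C3.

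The rest of the apolipoprotein family was low or overlapped between the groups. Of 20 further apolipoprotein genes with a row, 9 were tested, with 2 log2 fold changes above 0 and 7 below. Apoa2, a small HDL protein of liver, ran from 11 to 20 counts in controls and from 7 to 11 with AZ6983, and 5 AZ6983 mice were below every control, where 1.37% of all genes had at least 5. On the log2 scale it was at -0.75 against controls (standard error 0.241, edgeR adjusted p = 0.447). Apol11b and Apol10b had log2 fold changes of 0.55 and 0.16 (adjusted p = 0.694 and 0.721, edgeR). Apoc3, an inhibitor of lipoprotein lipase, had 3 to 9 counts in controls and 6 to 16 in AZ6983 mice and was not tested.

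Genes that control lipases or act on lipoproteins numbered 18 with a row, of which 16 were tested and 0 passed 10% FDR in edgeR. Their median log2 fold change was 0.05, against 0.01 over all genes tested. At an unadjusted p under 0.05 there were 0 higher and 1 lower, namely Pon1, a paraoxonase carried by HDL, where the background over all genes was 7.38% higher and 2.81% lower. Pon1 averaged 14.3 ± 3.83 CPM in the control group and 8.41 ± 2.17 CPM in the agonist group (SD, n = 6 each). Of the AZ6983 mice 4 were below every control, at least as many as in 4.87% of all genes, and on the log2 scale the groups differed by -0.77 (standard error 0.205, edgeR adjusted p = 0.447). Pon1 is among the genes the authors called lower with DESeq2 at 10% FDR. Pon2 had a log2 fold change of -0.10 (adjusted p = 0.504) and Pcsk5, a protease that cleaves lipase and its inhibitors, of 0.24 (adjusted p = 0.525, both edgeR). Angptl4, which unfolds lipoprotein lipase, averaged 144 CPM without and 152 CPM with AZ6983, and Lmf1, which helps the lipase fold, at 22.7 and 23.1 CPM.

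All 21 listed lipoprotein receptors and their partners were tested, with a median log2 fold change of 0.11 and 0 genes at 10% FDR in edgeR. At an unadjusted p under 0.05 there were 4 higher and 1 lower, where the background over all genes in the higher direction was 7.38%. The 3 with the smallest p were Scarb1, the HDL receptor SR-BI (27.3 ± 5.28 CPM without and 40.9 ± 8.85 CPM with AZ6983, SD, n = 6 each), Sorcs2, a sortilin-family receptor, and Mylip, a ubiquitin ligase. Their log2 fold changes were 0.58, 0.44 and 0.31, each with an adjusted p of 0.447 in edgeR. In Scarb1 every AZ6983 mouse was above every control, as in 0.259% of all genes tested. Scarb1 is among the genes the authors called higher with DESeq2 at 10% FDR, and Sorcs2 and Mylip are not.

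Apoe, Apoc1, Lpl and Pltp are known LXR targets, and 13 further LXR targets were set beside them. Of these 11 were tested, with a median log2 fold change of 0.43 against 0.01 over all genes tested, and 6 of 11 had an unadjusted p under 0.05, all of them higher, where the background in that direction was 7.38%. None passed 10% FDR in edgeR. The authors, using DESeq2 at 10% FDR, reported the member Apoc1 and the listed genes Srebf1, Lpcat3, Scd2 and Abca1 as higher with AZ6983. The list was chosen with earlier results on these mice known, and its leading genes Srebf1, Lpcat3 and Scd2 (log2 fold changes 1.02, 0.60 and 0.97) are not independent evidence of a direction. Of the 4 members, Apoc1 had a larger log2 fold change than each of the listed genes, while Apoe, Lpl and Pltp were at 0.25, 0.11 and -0.03.

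**Figure D5:**
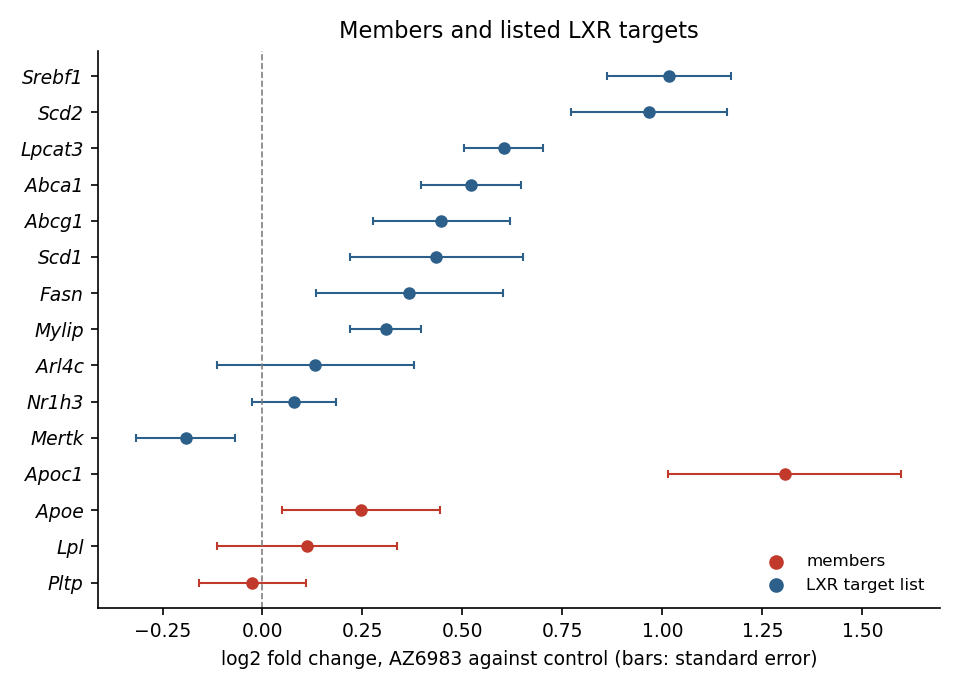
Log2 fold change of AZ6983 against control mice from edgeR, with bars for the standard error, for 4 members (red) and for 11 listed LXR targets (blue). Apoc1 at 1.31 and Srebf1 at 1.02 are the highest of each set, and Lpl, Apoe and Pltp lie between -0.03 and 0.25.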

How the data were processed

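Stranded, rRNA-depleted total RNA from 12 aortas was sequenced by the authors, and the submitters' processing notes list CASAVA 1.8.2, STAR 2.5.2b, HTSeq 0.6.1p1 and mm10, whereas the annotation and the strand setting of the counting are not given in the sources used here. The deposited values are raw counts per gene symbol, 1 column per mouse, and no gene has a total under 2. Rows that name no gene (3) entered neither library sizes nor tests, and hold reads on no gene (8.02% to 14.9% of the table), reads aligned to more than 1 place (18.1% to 23.2%) and ambiguous reads (0.606% to 0.698%). Without poly(A) selection, unspliced RNA can add to the counts. No pair of libraries was a copy of another (chi-square per degree of freedom 12.02 to 226 over 66 pairs).

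Groups came from the labels. The main test was that of edgeR 4.0.16, run under R 4.3.3 (TMM, filterByExpr, quasi-likelihood test, no covariate, Benjamini-Hochberg adjustment over 15857 genes, threshold 10% FDR). Standard errors follow from the fold change and its F statistic. Marker scores are mean log2 CPM with a prior count of 2, compared by exact permutation tests over 924 assignments, whose smallest p is 0.00216. Alternatives were DESeq2 1.42.0, limma-voom (limma 3.58.1), other scalings and filters, a covariate, 1 surrogate variable (sva 3.50.0) and mice left out. On simulated counts with 200 of 15857 genes changed, edgeR recovered 197 with 18 false calls. For DESeq2 these numbers were 198 and 87, and for limma-voom 195 and 24. Positions and exon lengths are from GENCODE M21 (GRCm38, the build of mm10) and promoters from RefSeq GRCm38.p6.

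The members and lists were chosen with earlier results of these data known. Named are all 10 members, up to 3 genes per list with the smallest p, the neighbours Apoc2, Apoc4 and Tomm40, and the 3 genes most like each tested member in Pearson's r. Some genes that these rules name are not reported here. Other genes (Angptl4, Lmf1, Apoc3, Alb, Fga and Fgb among them) were named after their values were seen. Where a gene has few reads its counts are printed, since they set the precision.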

Additional observations from a re-analysis of the deposited data

Results flagged for a closer look

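In 48 groups of 6 mice, each holding the values of a tested member, a marker score or a member relative to its markers, 4 showed a wide gap between 1 mouse and the nearest of the others, where chance gives about 1 in 20, or 2.4. None of these was a member by itself. The brown adipocyte score was low in C6 (7.20 log2 CPM, the other controls 7.81 to 8.02), and so was its endothelial score (6.44, the others 6.62 to 6.73). C6 was also the mouse with the lowest Lpl, Gpihbp1 and Apoc1 and the highest Pltp. The T cell score was high in A4 (6.53, the other AZ6983 mice -0.30 to 2.08). Apod relative to the fibroblast markers was low in A2 (-3.48, the others -2.07 to -1.37 on the log2 scale).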

How the results depend on the processing

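The count of genes at 10% FDR was 0 in edgeR (1616 at an unadjusted p under 0.05), 92 in DESeq2 on every gene, 84 in DESeq2 on the filtered genes, 0 in limma-voom, 2 with library totals alone, and 0 to 27 with 1 mouse left out, the 27 without A5. Of 205 alternative fits of the members 190 kept the direction and the side of the threshold. Apoc1 passed 10% FDR in both DESeq2 fits (log2 fold change 1.30 in each) and in no other, its adjusted p being 0.201 to 0.719 with 1 mouse left out. Values near 0 changed sign. With reads on no gene as a covariate Lpl was at -0.053 and Gpihbp1 at 0.072, and without A4 and A5 together Lpl was at -0.073 and Pltp at 0.046. With 1 mouse left out Lpl ran from -0.069 to 0.21, Gpihbp1 from -0.26 to 0.015 and Pltp from -0.11 to 0.079. Without C2 and without the filter, an alternative chosen after seeing the data, Apoa1 was at 0.056 and Apob at 1.16.

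Of the 11 marker scores none had an adjusted p under 0.05, and 127 of 154 alternatives kept direction and call. With 1 mouse left out the difference ran from -0.15 to 0.11 for hepatocyte, -0.052 to 0.047 for smooth muscle, -0.051 to 0.067 for fibroblast and -0.38 to 0.40 for cardiac muscle markers. Without A4 and A5 together it was -0.0040 for white adipocyte, 0.074 for hepatocyte, 0.049 for smooth muscle and 0.076 for cardiac muscle markers. Relative to macrophage markers Apoc1 differed by 1.45 to 1.95 with 1 mouse left out and by 1.28 without A4 and A5. Relative to brown adipocyte markers Lpl differed by 0.31 to 0.43 and by 0.36. Both lost the 5% threshold in 11 of 14 alternatives, where fewer mice also give fewer assignments. Relative to white adipocyte markers Lpl ran from -0.13 to 0.076. Low counts limit Apoa1, Apob and Lcat.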
